A study of Mus musculus with 4 samples.

Results

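The calcification regulators described here are 6 of the 32287 genes listed in the deposited matrices, chosen by symbol for known roles in keeping mineral out of the arterial wall or in forming cartilage and bone: Mgp, Enpp1, Spp1, Alpl, Sox9 and Runx2. They were measured by droplet-based single-cell RNA sequencing of GFP-positive smooth muscle cells (SMCs) sorted from the first aortic segments (ascending aorta and arch) of mice. The question was what loss of both TGF-beta receptors in SMCs does to these cells. There were 2 libraries of Tgfbr1/2iSMCKO mice (KO) and 2 of GFPiSMC mice (WT), all C57BL/6J and 12 weeks old at analysis. KO mice carried floxed Tgfbr1 and Tgfbr2 alleles together with Myh11-CreERT2 and the mT/mG reporter. WT mice carried Myh11-CreERT2 and mT/mG without the floxed alleles. Myh11-CreERT2 is a tamoxifen-inducible Cre driven by the promoter of a smooth muscle myosin gene, and mT/mG turns a cell from tdTomato to eGFP when Cre acts. Both genotypes received tamoxifen for 5 days, at 1 mg per day at 4 weeks of age or 2 mg per day at 11 weeks, and the labels do not say which course each library had. The cells of a sample came from individual aortic segments, and the labels do not say how many mice gave each library. The p-values rest on the spread between 2 libraries per genotype, whether of single mice or of pools.

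Arterial calcification is held back by secreted inhibitors and by pyrophosphate. Matrix Gla protein (Mgp) needs vitamin K-dependent carboxylation, and mice that lack it calcify their large arteries. Enpp1 cuts extracellular ATP to make pyrophosphate, which blocks crystal growth, and Alpl, tissue-nonspecific alkaline phosphatase, hydrolyses it. Osteopontin (Spp1) binds mineral and signals to cells through integrins and CD44. Sox9 and Runx2 are the transcription factors that drive cartilage and bone cell fates.

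Promoter windows are shown for 3 regulators because Runx2 is itself a RUNX factor and because SMAD proteins carry the signal of the receptors that were targeted. Windows of 300 bases, with 250 before and 50 after the annotated start, were found for 4 of the 6 genes in RefSeq on GRCm38.p6. They are printed 5′ to 3′ on the strand of the gene. Capitals mark CAGAC, the SMAD-binding sequence, ACCACA, the RUNX core, and their reverse complements GTCTG and TGTGGT. The Enpp1 window is chr10:24712110-24712409 on the minus strand, the Spp1 window is chr5:104434861-104435160 on the plus strand, and the Runx2 window is chr17:44814578-44814877 on the minus strand.
Enpp1: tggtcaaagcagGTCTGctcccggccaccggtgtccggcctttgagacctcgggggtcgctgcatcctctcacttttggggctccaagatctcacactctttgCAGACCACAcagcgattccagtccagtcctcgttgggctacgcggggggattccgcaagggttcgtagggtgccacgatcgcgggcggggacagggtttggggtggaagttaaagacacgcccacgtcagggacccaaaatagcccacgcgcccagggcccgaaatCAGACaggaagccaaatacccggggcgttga
Spp1: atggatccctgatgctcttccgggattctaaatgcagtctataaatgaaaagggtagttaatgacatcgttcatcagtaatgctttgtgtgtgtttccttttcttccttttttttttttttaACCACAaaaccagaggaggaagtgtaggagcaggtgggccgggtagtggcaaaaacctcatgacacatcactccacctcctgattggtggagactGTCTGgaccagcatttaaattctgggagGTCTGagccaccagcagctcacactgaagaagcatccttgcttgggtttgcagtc
Runx2: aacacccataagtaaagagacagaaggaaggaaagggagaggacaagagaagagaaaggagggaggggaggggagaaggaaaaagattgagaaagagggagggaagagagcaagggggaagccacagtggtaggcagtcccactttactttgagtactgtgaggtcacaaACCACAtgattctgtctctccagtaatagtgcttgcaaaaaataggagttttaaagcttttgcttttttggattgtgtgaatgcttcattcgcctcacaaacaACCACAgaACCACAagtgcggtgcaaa
The Enpp1 window held CAGAC 3 times, counting both strands, and ACCACA 1 time, and one CAGAC shared bases with the ACCACA. Among 32851 RefSeq promoter windows of this length, 49.6% held CAGAC at least once and 3.90% held it 3 times or more. The Runx2 window held ACCACA 3 times and CAGAC 0 times, and 0.183% of the windows held ACCACA 3 times or more. The first Spp1 window held CAGAC 2 times, both on the opposite strand, and ACCACA 1 time. Of all windows, 16.2% held CAGAC 2 times or more and 16.8% held ACCACA at least once. The second of 2 Spp1 windows, not printed, held CAGAC 1 time and ACCACA 0 times. The first of 2 Alpl windows, chr4:137796335-137796634 on the minus strand, held neither, and the second also held neither. These matches describe the letters in the windows and were not tested as binding sites.

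After quality filters, 4252 and 3522 KO cells and 2429 and 3265 WT cells were kept, with library medians of 13898 to 15383 UMIs (unique molecular identifiers, each standing for 1 captured RNA molecule) per cell. Kept UMIs summed to 59203071 and 50605349 in KO libraries and 35255748 and 49723949 in WT libraries, and pairs of libraries shared 2 to 5 kept barcodes. The cells carried the smooth muscle label in their RNA: the 7 smooth muscle markers summed to 50876 and 48398 CPM (UMIs of the genes per 1000000 UMIs) in KO and 44349 and 46394 CPM in WT. The eGFP transcript stood at 7914 and 7653 CPM in KO and 5691 and 5885 CPM in WT. Tgfbr1 and Tgfbr2 RNA did not pass the test, and 3′ tags outside the deleted exons do not check the deletion. Cells with at least 3 markers of 1 other cell type numbered 103 and 109 in KO and 26 and 38 in WT, nearly all by fibroblast markers. Cartilage markers (9 genes) summed to 23.5 and 23.0 CPM in KO and at least 58.3 CPM in both WT libraries, of which aggrecan made up most. Cardiomyocyte markers (5 genes) summed to 33.1 and 29.1 CPM in KO and 0.709 and 1.75 CPM in WT. The part of these other-type markers in the results below was not tested, except where values without such cells are given. Levels of whole libraries are scaled by TMM factors of 0.990 to 1.017, and levels within a set of cells are plain CPM.

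Mgp fell in KO cells, and so did Enpp1 and Alpl. Sox9 rose by a smaller amount that depended on which cells and libraries entered. Runx2 did not pass the test, and Spp1 was too low to be tested. Across all genes, edgeR's quasi-likelihood test with Benjamini-Hochberg adjustment called 20.3% of 14474 tested genes at an adjusted p under 0.05, 9.17% higher and 11.1% lower in KO. Of the 5 regulators that passed the filter on low counts, 3 were called lower and 1 higher. Their KO and WT libraries did not overlap for 4 of the 5, against 63.5% of all tested genes. The median log2 change of the 5 was -0.87, against -0.00 over all tested genes. The regulators were chosen with earlier results of these data known, so these comparisons with all genes are descriptions.

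**Figure D1:**
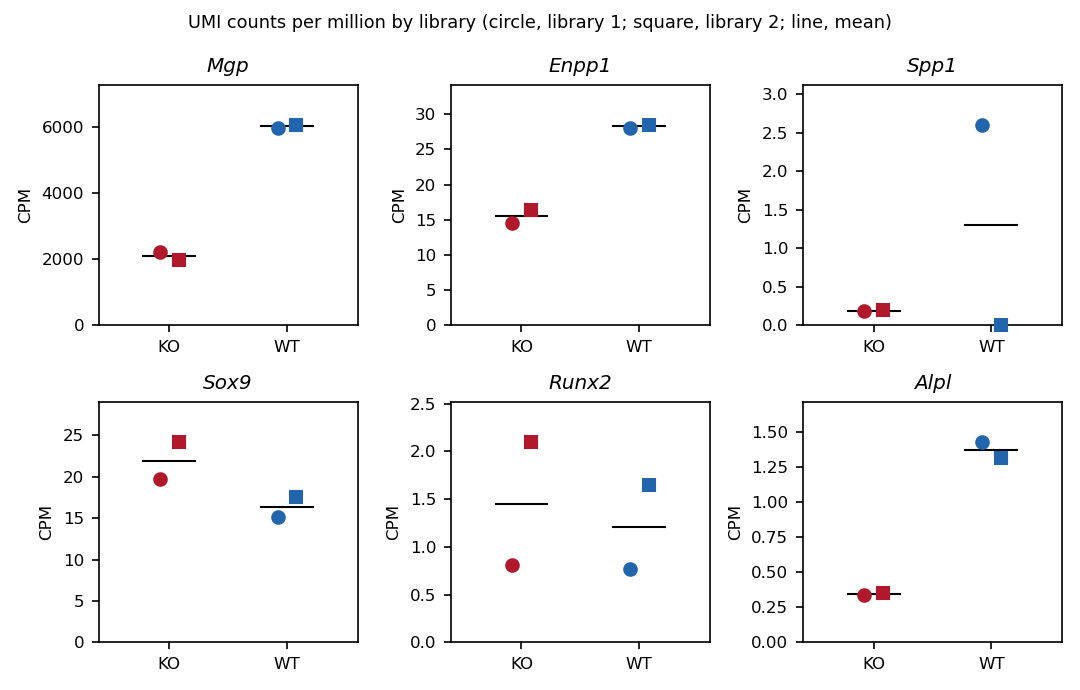
Level of each regulator in CPM of summed UMIs, KO to the left of WT in each panel, circles for library 1, squares for library 2 and lines for the group mean. Mgp, Enpp1 and Alpl are lower in both KO libraries than in either WT library, Sox9 is higher in both, Runx2 overlaps, and Spp1 is set by WT library 1 at 2.61 CPM.

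Mgp lies on chromosome 6 at 136872435 to 136875823 on the minus strand of GRCm38. It was measured at 2222 and 1969 CPM in KO, against 5970 and 6072 CPM in WT. Both KO libraries were far below both WT libraries, and the spread within each genotype was small beside the gap. The group means were 2096 ± 179 CPM in KO and 6021 ± 72.5 CPM in WT (SD, n = 2 each). This was a log2 change of -1.52 (SE 0.07, edgeR adjusted p = 6.66e-06), so that KO libraries kept 34.8% of the WT level. In bulk sums of this kind, fewer cells with the RNA and less RNA per cell cannot be told apart, so the cells were examined one by one after each had been thinned to 5000 UMIs.

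The loss of Mgp ran through most KO cells rather than emptying a few. The median thinned cell held 8 and 7 Mgp UMIs in KO libraries and 21 and 22 in WT libraries. On the CPM scale, where 1 UMI is 200 CPM, the medians were 1600 and 1400 in KO and 4200 and 4400 in WT. The difference of the group means was -2800 CPM, with an exact two-sided permutation p of 0.333, the smallest that 2 against 2 libraries allow. Mgp was still found in 97.0% and 95.6% of thinned KO cells, against 99.9% and 99.9% of thinned WT cells. Before thinning, 99.0% and 98.0% of KO cells and 99.4% and 99.6% of WT cells had a UMI. Thinning left out 319 KO and 359 WT cells with fewer than 5000 UMIs.

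The KO and WT distributions overlapped over much of their range. Above the WT median of 21.5 UMIs lay 10.4% and 8.89% of KO cells, against 49.5% and 51.3% of WT cells. Below the 10th percentile of WT cells, which is 8 UMIs, lay 48.8% and 51.7% of KO cells and 9.32% and 8.28% of WT cells. The 90th percentile over cells was 4400 and 4000 CPM in KO and 11000 and 11400 CPM in WT, so the upper end moved down with the middle. The richest 1% of cells held 13.4% and 8.96% of thinned Mgp UMIs in KO and 9.58% and 7.65% in WT.

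**Figure D2:**
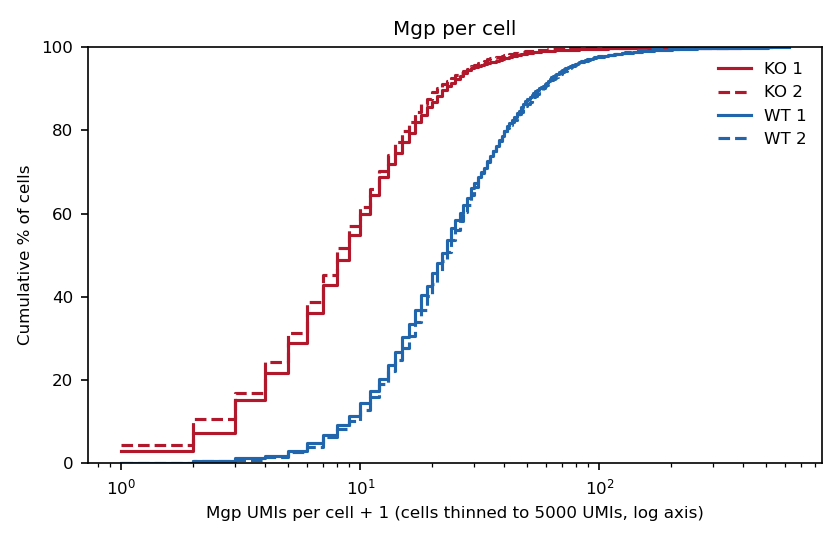
Cumulative percentage of cells (vertical axis) by Mgp UMIs per cell plus 1 (horizontal log axis) after thinning to 5000 UMIs, red for KO and blue for WT, solid for library 1 and dashed for library 2. Both KO curves lie to the left of both WT curves over nearly their whole length, with medians of 8 and 7 UMIs in KO and 21 and 22 UMIs in WT.

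KO cells differed among themselves in how much Mgp they kept. Clusters were built without the regulators or the listed genes, and they separated KO from WT cells almost fully. In this paragraph they are therefore described within a genotype. In the main KO cluster, led by Itih4, Nrgn and Gm49708, 9.34% of library 1 cells and 9.06% of library 2 cells exceeded the WT median. In a KO cluster led by Lum, Dcn and Ifit1 the shares were 17.3% and 24.5%. Lum and Dcn are on the fibroblast marker list, and the part of fibroblast RNA in these shares was not tested. In a KO cluster led by Adamtsl1, Spock2 and Dlx6 the shares were 3.81% and 1.09%. Cells with at least 3 markers of another type held 4845 and 4234 CPM of Mgp in KO and 6525 and 8650 CPM in WT, and without them the log2 change of Mgp was -1.57 (edgeR adjusted p = 5.09e-06). KO cells with a tdTomato UMI, 120 and 60 cells, held 3210 and 3930 CPM of Mgp, against 2198 and 1964 CPM in KO cells without one. The medians over these cells were closer, at 1918 and 1758 CPM with a tdTomato UMI and 1513 and 1470 CPM without one. Only 1 and 2 WT cells had a tdTomato UMI, too few to compare. The identity of the KO cells with one was not tested.

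By the rule for likeness between cells, which asks for a mean Spearman correlation of at least 0.2 over the 4 libraries, the genes that followed Mgp most closely from cell to cell out of 5743 compared were Cst3 at 0.317 and Tm4sf1 at 0.277. Each value is a mean over libraries of 2232 to 4102 thinned cells. Cst3 encodes cystatin C, a secreted protease inhibitor. Cst3 itself was 1866 and 1558 CPM in KO and 2383 and 2447 CPM in WT, a log2 change of -0.50 (SE 0.08, edgeR adjusted p = 0.00472). Tm4sf1 was 1435 and 1235 CPM in KO and 1225 and 1173 CPM in WT and did not pass the test (log2 0.16, edgeR adjusted p = 0.195). Cells of 1 library share depth and preparation, so these are descriptions.

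Enpp1 lies on chromosome 10 at 24637914 to 24712159 on the minus strand. It was measured at 14.5 and 16.4 CPM in KO, against 28.1 and 28.5 CPM in WT, with no overlap. The log2 change was -0.87 (SE 0.09, edgeR adjusted p = 0.000384), a fall to 54.7% of the WT level. In thinned cells, 6.51% (exact 95% interval 5.77 to 7.31) and 7.52% (6.65 to 8.46) of KO cells and 12.5% (11.1 to 13.9) and 12.9% (11.7 to 14.1) of WT cells had an Enpp1 UMI. Unthinned shares were 16.1% and 18.4% in KO and 29.8% and 30.4% in WT. These intervals, and all others here, cover counting error only. The sort left too few cells of any other type to give a background share for free RNA.

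Alpl, the enzyme that acts against Enpp1 on pyrophosphate, lies on chromosome 4 at 137741733 to 137796384 on the minus strand and was scarce in all libraries. It gave 20 and 18 UMIs in KO, against 50 and 65 UMIs in WT. As levels these were 0.337 and 0.350 CPM in KO and 1.43 and 1.32 CPM in WT, again with no overlap. The log2 change was -1.99 (SE 0.27, edgeR adjusted p = 0.00178), a fall to 25.1% of WT. The share of thinned cells with a UMI was 0.171% and 0.119% in KO and 0.806% and 0.548% in WT. Thus RNA of the enzyme that makes pyrophosphate and RNA of the enzyme that breaks it down were both lower in KO.

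Spp1 lies on chromosome 5 at 104435118 to 104441050 on the plus strand and was nearly silent. It gave 11 and 10 UMIs in KO, in 5 and 5 cells, against 91 and 0 UMIs in WT, in 5 and 0 cells. The filter on low counts removed it. A single WT library 1 cell, picked out after the values were seen, held 82 of the 91 UMIs, and the other 4 WT cells held 6, 1, 1 and 1. That cell had 1182 Mgp UMIs and 105 eGFP UMIs among 21878, with 0 macrophage markers, 1 cartilage marker and 0 osteoblast markers. Its smooth muscle markers summed to 10193 CPM, against 44349 CPM in WT library 1 as a whole. The identity of the cell was not tested. The 0 in WT library 2 allows a level of up to 0.0603 CPM and a share of cells with a UMI of up to 0.0919%, taking 3 counts as the limit. It does not limit the share of cells that express the gene. In KO library 2, cells with markers of another type held 8 of the 10 Spp1 UMIs. One of those cells held 5 of them among 3675 UMIs and had 0 eGFP UMIs. The 8 other fits that let Spp1 into the test differed in direction. With no filter on low counts edgeR called it lower in KO (log2 -2.68). The log2 change was -3.76 without WT library 2, 6.36 without WT library 1 and 0.76 with at most 5% mitochondrial UMIs. In WT library 1, 1 cell holds 90.1% of the Spp1 UMIs.

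**Figure D3:**
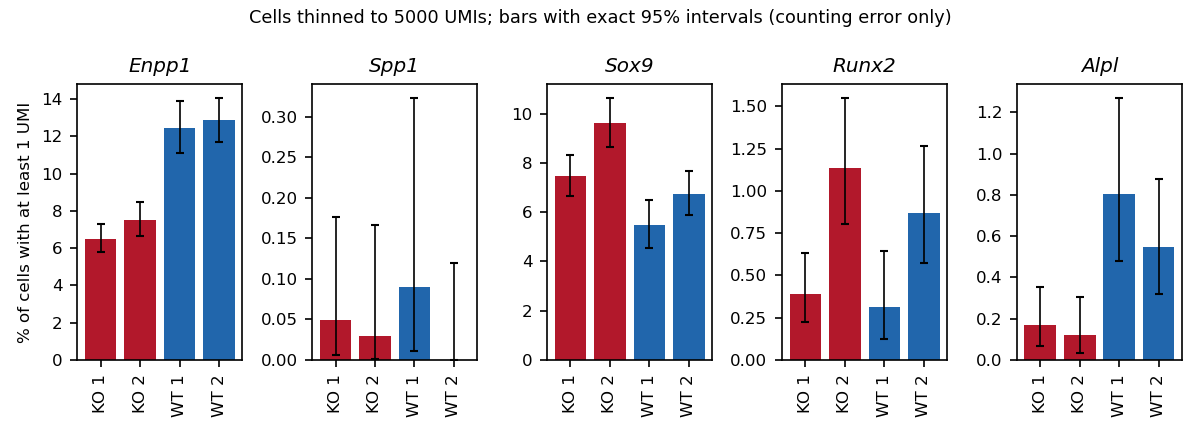
Percentage of thinned cells (5000 UMIs each) with at least 1 UMI of each scarce regulator, KO libraries (red) left of WT libraries (blue), with exact 95% intervals for counting error. Enpp1 and Alpl bars are lower in both KO libraries, Sox9 bars are higher in both, and Runx2 varies more within a genotype than between genotypes.

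Sox9 lies on chromosome 11 at 112782224 to 112787760 on the plus strand. It was measured at 19.7 and 24.2 CPM in KO, against 15.2 and 17.5 CPM in WT. Both KO libraries lay above both WT libraries, but the highest WT and the lowest KO value were close. The log2 change was 0.42 (SE 0.12, edgeR adjusted p = 0.0424), which passed the threshold narrowly. A Sox9 UMI was found in 7.46% and 9.60% of thinned KO cells and 5.47% and 6.74% of thinned WT cells. Without thinning the shares were 15.1% and 16.4% in KO and 11.2% and 13.9% in WT. The call was lost without KO library 2 (log2 0.26, edgeR adjusted p = 0.164) and without WT library 1 (0.32, edgeR adjusted p = 0.182).

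Sox9 was concentrated in the cells led by Adamtsl1, a set picked out after the data were seen. These cells fell into one cluster of nearly all KO cells, led by Adamtsl1, Spock2 and Dlx6, and one of nearly all WT cells, led by Prss12, Fbln1 and Hhip and with Adamtsl1 and Dlx6 among its top genes. Whether the KO cluster and the WT cluster hold matching cells was not tested, which limits every comparison of genotypes within them. The cells of both clusters made up 5.74% and 16.3% of KO cells and 4.28% and 8.97% of WT cells, so their share varied widely between libraries of 1 genotype. Inside them Sox9 stood at 87.1 and 96.7 CPM in KO and 73.5 and 70.1 CPM in WT. In all other cells it stood at 16.2 and 11.9 CPM in KO and 12.4 and 12.5 CPM in WT, where the genotypes overlap. The cells held 21.8% and 58.9% of Sox9 UMIs in KO and 20.6% and 33.8% in WT.

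Without the Adamtsl1-led clusters the Sox9 change was 0.16 (edgeR adjusted p = 0.456). Within them alone it was 0.36 (edgeR adjusted p = 0.0482). A gate of at least 2 of 3 genes, Adamtsl1, Dlx6 and Lrrtm3, gave 0.22 (edgeR adjusted p = 0.191) outside and 0.46 (edgeR adjusted p = 0.0313) inside. The difference between the inside and outside changes was not tested. KO library 2 had both the largest share of these cells and the highest Sox9 level of the 4 libraries, while KO library 1 had a smaller share than WT library 2 and a higher Sox9 level.

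Runx2 lies on chromosome 17 at 44495987 to 44814797 on the minus strand and was found mostly in the same cells. It gave 48 and 108 UMIs in KO, against 27 and 81 UMIs in WT, or 0.808 and 2.10 CPM in KO and 0.774 and 1.65 CPM in WT. In each genotype library 2 was the higher, and the groups overlap. The log2 change was 0.21 (SE 0.48, edgeR adjusted p = 0.791). The Adamtsl1-led clusters held 72.9% and 88.0% of Runx2 UMIs in KO and 66.7% and 87.7% in WT. Inside them the level was 12.0 and 12.5 CPM in KO and 12.1 and 17.1 CPM in WT, and in all other cells 0.231 and 0.302 CPM in KO and 0.266 and 0.219 CPM in WT. A Runx2 UMI was found in 4.66% of thinned KO library 2 cells with Sox9 and 0.759% of those without. In WT library 2 the shares were 2.87% and 0.726%. In library 1 they were 1.63% and 0.290% in KO and 0.820% and 0.284% in WT. Thinned cells with both genes numbered 5 and 15 in KO and 1 and 6 in WT.

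Enpp1 was also higher in the Adamtsl1-led cells, at 38.2 and 40.9 CPM in KO and 52.6 and 63.1 CPM in WT, against 13.4 and 12.4 CPM in KO and 26.7 and 25.1 CPM in WT in all other cells. Its change was -0.60 within them (edgeR adjusted p = 0.00435) and -1.02 without them (edgeR adjusted p = 6.77e-05). Mgp was lower in these cells, at 1511 and 999 CPM in KO and 3588 and 4224 CPM in WT, against 2267 and 2178 CPM in KO and 6010 and 6175 CPM in WT elsewhere. Its change was -1.67 within them and -1.48 without them. The falls of Mgp and Enpp1 were thus called in both sets of cells.

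**Figure D4:**
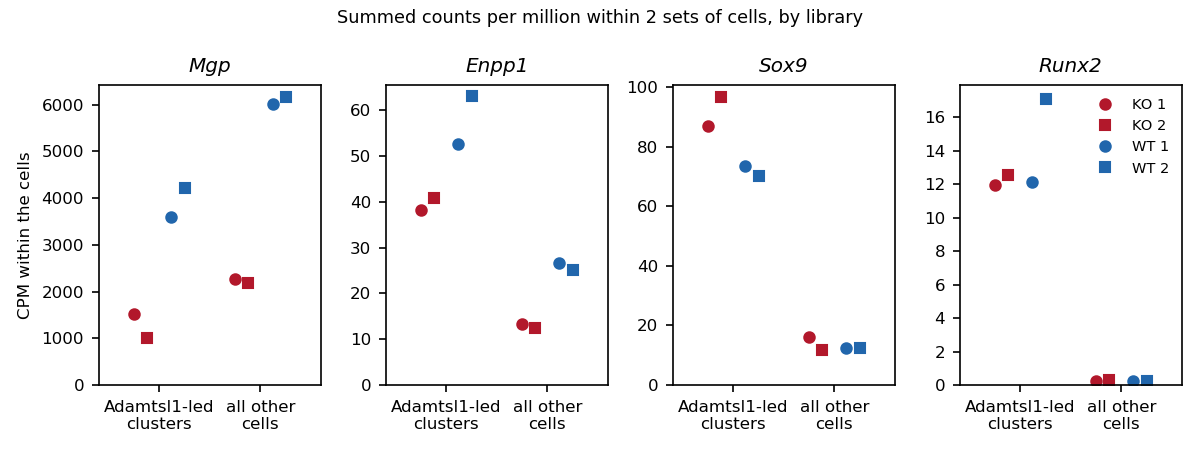
CPM of Mgp, Enpp1, Sox9 and Runx2 within the Adamtsl1-led clusters and within all other cells, by library, KO in red and left of WT in blue in each set, circles for library 1 and squares for library 2. Sox9 and Runx2 are many times higher inside the clusters, Mgp is lower inside, and the KO and WT points for Mgp and Enpp1 are apart in both sets.

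The wider pathways were read from lists of known genes, also chosen with earlier results of these data known. Each list is described by its counts beside the 9.17% of all genes called higher and 11.1% called lower. Of 12 tested genes of pyrophosphate and phosphate handling (14 listed), 1 rose, 2 fell and 9 did not pass, with a median log2 change of -0.17. Xpr1, the phosphate exporter, was 90.6 and 91.5 CPM in KO and 146 and 150 CPM in WT (log2 -0.70, edgeR adjusted p = 0.000233). The Xpr1 call was lost within the Adamtsl1-led clusters (-0.30, edgeR adjusted p = 0.177) and within the gate cells (-0.31, edgeR adjusted p = 0.206). Ank, the mouse symbol for the ANKH pyrophosphate transporter, did not pass the test (log2 -0.12, edgeR adjusted p = 0.276). Slc20a1, a phosphate importer, fell by 0.44, and Entpd1, which degrades ATP, rose by 0.26. Both of these calls were lost in the fits without 1 library, Slc20a1 in 4 of 4 and Entpd1 in 3 of 4.

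Of 8 tested genes of the vitamin K cycle and Gla proteins (10 listed), 0 rose, 3 fell and 5 did not pass, with a median of -0.14. At an unadjusted p under 0.05 edgeR had 1 of them higher, and DESeq2 and limma-voom called 0 higher after adjustment. Within the Adamtsl1-led clusters edgeR called 2 of the 8 higher and 2 lower after adjustment. Within the gate cells it called 2 of the 8 higher and 1 lower. Ggcx, the carboxylase that modifies Mgp, was 17.9 and 16.9 CPM in KO and 26.5 and 23.0 CPM in WT (log2 -0.50, edgeR adjusted p = 0.00759). Calu fell by 0.43, and Vkorc1, which recycles vitamin K, fell by 0.33 with the call lost without KO library 2 or without WT library 2. Within the gate cells neither Ggcx (-0.50, edgeR adjusted p = 0.104) nor Vkorc1 (-0.22, edgeR adjusted p = 0.348) passed. The other Gla proteins Gas6 and Pros1 did not pass.

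Of 8 tested secreted mineral-binding and decoy proteins (14 listed), 1 rose, 5 fell and 2 did not pass, with a median of -0.93. Sparc, osteonectin, was 882 and 814 CPM in KO and 1949 and 2439 CPM in WT (log2 -1.37, edgeR adjusted p = 9.85e-05). Omd, osteomodulin, fell by 2.40, Sost, the Wnt inhibitor sclerostin, by 0.94 and Ibsp, bone sialoprotein, by 1.69. Sparcl1 fell by 0.65, and Tnfrsf11b, osteoprotegerin, rose by 0.66 (both named after their values were seen). Of 9 tested osteopontin receptors (10 listed), 2 rose, 5 fell and 2 did not pass, with a median of -0.48. The receptors that fell were Itgb5 by 1.02, Itgb3 by 0.94, and Itga9, Itga8 and Itgav by 0.58, 0.56 and 0.48. Cd44, the hyaluronan receptor that also binds osteopontin, was 39.6 and 35.8 CPM in KO and 22.8 and 20.3 CPM in WT (log2 0.81, edgeR adjusted p = 0.000669), and Itga5 rose by 0.36, a call lost without KO library 2 or without WT library 1. Within the Adamtsl1-led clusters and within the gate cells 0 receptors were called higher by edgeR, and 0 and 1 at an unadjusted p under 0.05, with Cd44 at 0.47 (edgeR adjusted p = 0.228) and 0.49 (edgeR adjusted p = 0.232). Itga5, Itga8, Itga9 and Itgav were also named after their values were seen.

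Of 11 tested Sox9 partners and cartilage genes (22 listed), 0 rose, 4 fell and 7 did not pass, with a median of -0.18. At an unadjusted p under 0.05 edgeR had 0 of them higher. DESeq2 called 0 higher and 2 lower, losing Ihh and Col11a2, and limma-voom called 0 higher and 4 lower. The count called higher was 2 with no filter on low counts and 1 in each of 6 other edgeR fits: with all deposited barcodes, without KO library 2, without either WT library, without the Adamtsl1-led clusters and without the gate cells. Col9a1, a cartilage collagen left out by the filter on low counts and named after its values were seen, gave 24 and 10 UMIs in KO and 0 and 0 UMIs in WT. Acan, aggrecan, was 16.7 and 15.9 CPM in KO and 53.8 and 50.1 CPM in WT (log2 -1.67, edgeR adjusted p = 8.63e-06). Its change was -0.43 (edgeR adjusted p = 0.239) within the Adamtsl1-led clusters and -0.23 (edgeR adjusted p = 0.624) within the gate cells, where the call was lost. Comp fell by 0.78, Ihh by 0.98 and Col11a2 by 1.06. The Ihh call was lost without WT library 1, its change was -0.64 without KO library 2, and the Col11a2 call was lost in 4 of 4 fits without 1 library. Col2a1, the defining cartilage collagen, gave 3 and 0 UMIs in KO and 1 and 3 UMIs in WT. Sox5 and Sox6, the usual partners of Sox9, did not pass.

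Of 18 tested Runx2 partners and osteoblast genes (21 listed), 1 rose, 6 fell and 11 did not pass, with a median of -0.01. The largest log2 change, 2.16, was that of a gene that did not pass. At an unadjusted p under 0.05 edgeR had 3 higher and 6 lower. The count called higher was 3 with no filter on low counts and 3 with the replicate number as a block. It was 2 with all deposited barcodes and 2 without the highest doublet scores. In these fits 5 to 6 were called lower. DESeq2 and limma-voom each called 1 higher and 6 lower. Col1a1 and Col1a2, the chains of type I collagen made by many mesenchymal cells, fell by 1.06 and 0.99, and Postn fell by 0.74. Runx1, a relative of Runx2, was 5.27 and 5.52 CPM in KO and 1.92 and 1.99 CPM in WT (log2 1.46, edgeR adjusted p = 0.000457). Within the Adamtsl1-led clusters the change was 0.91 and the call was lost (edgeR adjusted p = 0.266), as it was within the gate cells (0.81, edgeR adjusted p = 0.342). Sp7, the osteoblast factor downstream of Runx2, was 0.168 and 0.253 CPM in KO and 0.0287 and 0.264 CPM in WT and did not pass. Bglap, osteocalcin, gave 2 and 4 UMIs in KO and 2 and 0 UMIs in WT. Of 16 tested BMP ligands and antagonists (22 listed), 1 rose, 7 fell and 8 did not pass, with a median of -0.00. Bmp4 was 2.10 and 1.77 CPM in KO and 5.25 and 4.37 CPM in WT (log2 -1.30, edgeR adjusted p = 0.0019), a call lost within the Adamtsl1-led clusters (-1.22, edgeR adjusted p = 0.127) and within the gate cells (-0.93, edgeR adjusted p = 0.34). Fstl3 fell by 1.49, Fstl1 by 1.03 and Twsg1 by 0.64, while Fst, follistatin, rose by 1.00. Bmp2 did not pass.

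**Figure D5:**
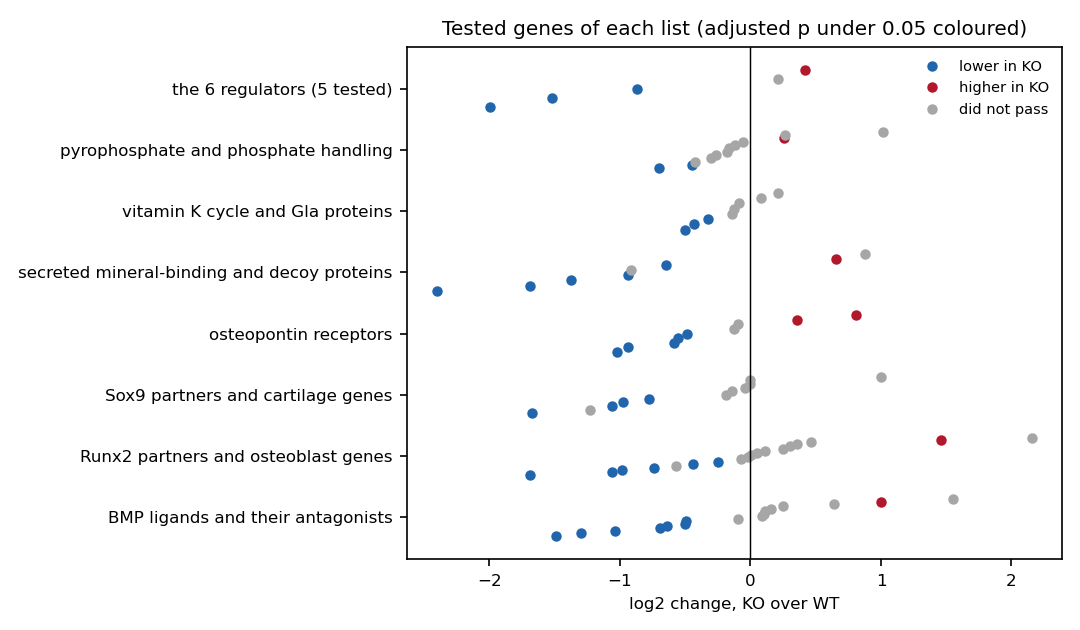
Log2 change, KO over WT, of every tested gene of each list, 1 point per gene, red for called higher, blue for called lower and grey for genes that did not pass at an adjusted p of 0.05. Calls lie to the left of 0 in most lists, and the largest fall shown is that of Omd at -2.40.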

How the data were processed

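Single-cell RNA of sorted aortic SMCs from 2 KO and 2 WT libraries was analysed. The deposited matrices hold raw UMI counts per gene and cell, and the file headers name Cell Ranger 5.0.1. The submitters' processing notes name mm10 and Seurat 4.0. Per the labels, 4376 and 3707 KO cells and 2597 and 3420 WT cells were found before filtering and 4031 and 3246 KO and 2151 and 3000 WT cells after. The files hold 4504 and 3858 KO and 2769 and 3565 WT barcodes, and the submitters' cell filter is not given in the sources used here. Of 14696 barcodes, 13468 passed a filter of 1000 or more UMIs, 500 or more genes and a mitochondrial share up to 10%. No doublets were removed, and leaving out the highest Scrublet scores was an alternative.

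Counts were summed per library and tested with edgeR 4.0.16 (TMM, filterByExpr, quasi-likelihood, Benjamini-Hochberg over all tested genes, threshold 0.05), a code tested on simulated data. Cells are not replicates, so cell values were compared over libraries, after thinning without replacement to 5000 UMIs, by an exact permutation test. Clusters were built with scanpy 1.11.5 without the regulators, listed genes or mitochondrial genes. The regulators and lists were chosen with earlier results of these data known. In each list the 3 tested genes with the smallest p and every called gene changed at least 2-fold were named. For Mgp, the only regulator found in at least 20% of cells in every library, the 5 genes most like it were sought and those at 0.2 or more printed, except 1 that is not reported here. Alternatives were other normalizations and tools (DESeq2 1.42.0, limma 3.58.1), filters, cell sets, thinning depths, libraries left out and the replicate number as a block. Replicates differed by more than sampling noise (chi-square per degree of freedom 15.99 in KO and 14.24 in WT). Free RNA could not be measured, since empty droplets were not used here.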

Additional observations from a re-analysis of the deposited data

How the results depend on the processing

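The falls of Mgp, Enpp1 and Alpl kept their direction and their call under every alternative that gave them a value: Mgp ranged from -1.84 to -1.44, Enpp1 from -1.02 to -0.60 and Alpl from -2.25 to -1.89. Fits without 1 library gave -1.61 to -1.44 for Mgp, -0.96 to -0.79 for Enpp1 and -2.05 to -1.94 for Alpl. Alpl was filtered out when only Adamtsl1-led or gate cells were used and under a minimum mean of 20 CPM.

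Sox9 kept its direction but lost its call with limma-voom (0.41, adjusted p = 0.0555), with at most 5% mitochondrial UMIs (0.41, edgeR adjusted p = 0.0653), with cells thinned to 5000 UMIs (0.46, edgeR adjusted p = 0.0927), without the Adamtsl1-led clusters (0.16) and without the gate cells (0.22). Fits without 1 library gave 0.26 to 0.56. In these settings, and with a minimum mean of 20 CPM, which leaves Sox9 untested, the number of regulators called higher was 0 in place of 1. Fits without 1 library called 0 to 1 regulators higher and 3 to 4 lower, 4 without WT library 2 and also with no filter, when Spp1 is tested.

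Runx2, never called, ranged from -0.62 without KO library 2 to 0.89 without WT library 2, and was -0.19 without WT library 1, -0.35 within the Adamtsl1-led clusters and -0.24 within the gate cells. Its share of thinned cells differed by -0.202 points without KO library 2, -0.108 points without WT library 1 and up to 0.541 points without KO library 1, against 0.170 with all. The Spp1 share, -0.00551 points, was 0.0197 points at 2000 UMIs, 0.000702 at 8000, 0.0269 without thinning, 0.00395 without KO library 2, 0.0393 without WT library 1 and -0.0503 without WT library 2.

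Counts over all genes, 1327 higher and 1611 lower, were 625 and 918 with a minimum mean of 20 CPM, 525 and 750 within the Adamtsl1-led clusters and 447 and 640 within the gate cells, where fewer genes were tested. Fits without 1 library gave 805 to 1161 higher and 1039 to 1297 lower, the lowest without WT library 1, with the lone library of a genotype assumed to vary like the other genotype's. With the replicate number as a block they were 1523 and 1751, and no regulator's call changed (Sox9 0.42, edgeR adjusted p = 0.00701). The deviations of same-numbered libraries had a correlation of 0.0437 over 14474 genes. The labels do not say what the number marks, and a shared batch was not tested. For the listed genes named in the report, 439 values kept direction and call and 40 kept direction only. The cause of these changes was not tested. Spp1, Runx2 and Alpl rest on 0 to 108 UMIs per library, which limits their precision.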
